A study of Mus musculus with 26 samples.

Results

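Ctse, Wdfy1, Pam, Rab7b, Ramp1, Stk25 and St8sia4 are 7 genes of mouse chromosome 1, the chromosome that also carries Il10, and they were followed in left lungs of Il10+/+ and Il10-/- mice kept in filtered air or O3. They were selected on their log2 values, which separated the genotypes in these same arrays, and they are 7 of 12394 measured genes and 7 of 708 measured on chromosome 1. All probe sets that carry only that gene's symbol were read, which gave 12 of 20393 probe sets. Il10+/+ mice were of strain C57BL/6, and Il10-/- mice were of strain B6.129P2-Il10tmlCgn/J as the labels spell it (tm1Cgn in the study's methods). The latter strain carries a targeted deletion of Il10. All mice were males of 6 to 8 weeks. In each genotype, 2 arrays came from mice in filtered air for 24 hr, 2 from air for 48 hr, and 3 each from 0.3 ppm O3 for 24, 48, and 72 hr, which makes 26 Affymetrix arrays. Air of both durations was taken as 1 group. The strain name says that the deleted Il10 came from 129P2 stock and was bred onto C57BL/6. Whether a difference at a chromosome 1 gene goes with the loss of IL-10 or with other 129P2 sequence carried beside the deletion cannot be told apart in this design, which holds no littermates or other congenic line. The labels do not say which animal an array came from, so the spread between arrays of a group may be partly technical.

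IL-10 is a cytokine that restrains inflammatory gene expression in macrophages and other immune cells, and inhaled O3 is an oxidant gas that injures airway epithelium and draws neutrophils into the lung. In a congenic strain a segment of the donor chromosome usually stays attached to the selected gene, and genes along it keep the donor's alleles. The 7 genes have different jobs. Ctse encodes cathepsin E, an endosomal aspartic protease of immune and epithelial cells. Wdfy1 encodes an endosomal FYVE domain protein that takes part in Toll-like receptor signaling, and Rab7b encodes a small GTPase of late endosomes and the trans-Golgi network. Pam encodes the enzyme that amidates the ends of peptide hormones, and Ramp1 encodes the accessory protein that turns the calcitonin receptor-like receptor into a receptor for calcitonin gene-related peptide. Stk25 encodes a germinal center kinase associated with the Golgi, and St8sia4 encodes a sialyltransferase that builds polysialic acid on cell surface proteins.

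A pair of arrays stood apart from their groups. The array labelled Il10-/- O3 24 hr replicate 2 correlated with the others at r of 0.847 to 0.879 over all probe sets, and the lowest r among the other 25 was 0.965. Its mean log2 level over 6 alveolar type 2 markers was 5.98, against 13.1 to 13.4 on the 24 arrays without it and the next array named, and its mean over 5 B cell markers was 11.2, against 5.87 to 8.22. It was left out, as the study's methods leave out 1 array of this group. The array labelled Il10-/- air 48 hr replicate 1 had lung marker levels (13.1 for alveolar type 2 cells). But at Il10 and the highest-mean probe sets of the 7 genes its log2 values were nearer to the mean of Il10+/+ mice. Its label was kept, and results that rest on it are given over 25 arrays with it and over 24 arrays without it. In whole lung, fewer cells of a type and less RNA per cell cannot be told apart.

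The Il10 probe set, 1450330_at, was read first as a check of the labels. On the 13 Il10+/+ arrays its log2 value ran from 3.92 to 4.25, with a median of 4.08. On 11 Il10-/- arrays it ran from 6.29 to 7.71, with a median of 7.11, and on the array labelled Il10-/- air 48 hr replicate 1 it was 3.87. The signal was therefore higher, not lower, in the mice that lack Il10. The sources used here do not give the part of the transcript that this probe set reads, so it checks the grouping of arrays but not the deletion.

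The 7 genes lay on both sides of Il10, at unequal distances. In the gene order of assembly GRCm38.p6 the sequence along chromosome 1 is Wdfy1, Ramp1, Stk25, St8sia4, Pam, Il10, Ctse, Rab7b. Ctse and Rab7b are adjacent protein-coding genes just after Il10, with 8 and 9 protein-coding genes between. Pam, the nearest on the other side, has 87 protein-coding genes between it and Il10, St8sia4 has 95, Stk25 has 108, Ramp1 has 151, and Wdfy1 has 251. In places counted over measured genes, 5 members stood 53 to 145 places before Il10 and 2 stood 8 and 9 places after it. The promoter windows of 4 members, the only ones with an entry, were found in the RefSeq table for GRCm38.p6 and are shown. No window is listed there for Ctse, Wdfy1 or Rab7b. Each window runs from 250 bases before the start of the gene to 50 bases after it, read 5′ to 3′ on the gene's strand, and capitals mark matches to the motifs named after the sequences. The windows are chr1:91179572-91179871 on the plus strand for Ramp1, and on the minus strand chr1:95667545-95667844 for St8sia4, chr1:93635678-93635977 for Stk25, and chr1:98095597-98095896 for Pam, the first of 2 listed.
Ramp1: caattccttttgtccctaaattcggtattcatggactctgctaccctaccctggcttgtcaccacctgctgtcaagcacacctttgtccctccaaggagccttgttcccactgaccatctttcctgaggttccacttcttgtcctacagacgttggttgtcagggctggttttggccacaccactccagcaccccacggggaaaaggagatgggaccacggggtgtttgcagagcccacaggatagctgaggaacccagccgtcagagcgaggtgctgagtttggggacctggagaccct
St8sia4: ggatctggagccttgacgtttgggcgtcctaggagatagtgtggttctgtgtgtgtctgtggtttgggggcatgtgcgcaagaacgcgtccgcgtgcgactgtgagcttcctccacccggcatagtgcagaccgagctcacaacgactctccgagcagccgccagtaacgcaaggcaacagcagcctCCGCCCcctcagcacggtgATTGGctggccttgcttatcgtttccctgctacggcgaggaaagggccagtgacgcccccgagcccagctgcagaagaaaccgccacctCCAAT
Stk25: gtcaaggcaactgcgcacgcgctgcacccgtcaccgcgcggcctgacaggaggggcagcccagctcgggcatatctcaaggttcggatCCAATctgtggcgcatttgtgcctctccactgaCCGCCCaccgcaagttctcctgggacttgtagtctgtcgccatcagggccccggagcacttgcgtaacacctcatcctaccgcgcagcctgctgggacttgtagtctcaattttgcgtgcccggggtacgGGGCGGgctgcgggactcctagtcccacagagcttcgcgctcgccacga
Pam: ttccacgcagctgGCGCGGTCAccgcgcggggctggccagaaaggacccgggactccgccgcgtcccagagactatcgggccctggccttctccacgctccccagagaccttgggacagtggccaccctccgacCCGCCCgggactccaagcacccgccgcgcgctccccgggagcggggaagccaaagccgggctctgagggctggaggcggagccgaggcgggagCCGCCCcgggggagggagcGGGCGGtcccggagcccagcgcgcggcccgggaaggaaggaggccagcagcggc

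Letters searched on both strands were the GC box GGGCGG, the CCAAT box CCAAT, the TATA box TATAAA, the E box CACGTG, the STAT motif TTCNNNGAA, the antioxidant response element core TGACNNNGC, and the AP-1 motif TGANTCA. No 2 matches overlap in these windows. Pam held 3 GC boxes and 1 antioxidant response element core, Stk25 held 2 GC boxes and 1 CCAAT box, and St8sia4 held 1 GC box and 2 CCAAT boxes. The Ramp1 window held none of the 7 motifs. Of 32851 mouse promoter windows of the same length, 35.7% held a GC box, 37.4% a CCAAT box, and 12.4% the antioxidant response element core. Ramp1 also had the fewest CG pairs, 6, against 22 in St8sia4, 26 in Stk25, and 35 in Pam, where the median over all windows was 7. These matches are letters in a window and were not tested for binding.

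Between the genotypes, Ctse, Wdfy1 and Pam were higher and Stk25, St8sia4, Ramp1 and Rab7b were lower in Il10-/- lungs at every exposure. Because these differences chose the genes, they are given as a description, without a test. Each gene is given by its probe set with the highest mean over all arrays. A difference of 1 on the log2 scale is a 2-fold difference.

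Ctse had the widest gap of the 7. In Il10+/+ mice its log2 values were 6.33, 5.90, 5.65, and 5.84 in air, 5.68, 5.43, and 5.10 after 24 hr of O3, 5.92, 5.85, and 5.50 after 48 hr, and 5.79, 5.83, and 6.12 after 72 hr. In Il10-/- mice they were 8.81, 8.40, and 7.88 in air, 8.98 and 8.14 after 24 hr, 8.14, 8.30, and 8.20 after 48 hr, and 8.71, 8.40, and 9.14 after 72 hr. Every one of these 11 Il10-/- arrays lay above every Il10+/+ array, by at least 1.55. The means differed by 2.70 on the log2 scale, or 6.49-fold (Il10+/+ 5.76 ± 0.31, SD, n = 13; Il10-/- 8.46 ± 0.40, SD, n = 11). The genotype difference of means was 2.43 in air and 3.15, 2.45, and 2.84 after 24, 48, and 72 hr of O3.

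Wdfy1 and Pam were the other genes with higher values in Il10-/- mice. Wdfy1 ran from 6.37 to 7.15, with a median of 6.54, in Il10+/+ mice and from 7.85 to 8.55, with a median of 8.20, in Il10-/- mice, a difference of means of 1.60. Pam ran from 5.56 to 6.67, with a median of 6.27, in Il10+/+ mice and from 7.11 to 7.94, with a median of 7.63, in Il10-/- mice, a difference of 1.35. In air the genotype difference of means over 24 arrays was 1.86 for Wdfy1 and 1.68 for Pam, and with the array labelled Il10-/- air 48 hr replicate 1 it was 1.52 and 1.23. After 24, 48, and 72 hr of O3 it was 1.14, 1.502, and 1.74 for Wdfy1 and 1.28, 1.26, and 1.11 for Pam. Air thus held the largest difference of both genes over 24 arrays and of neither over 25. The genotypes did not overlap at either gene.

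Stk25 had the largest difference among the 4 genes with lower values in Il10-/- mice. In Il10+/+ mice its log2 values were 9.88, 9.67, 9.80, and 9.36 in air, 9.87, 9.73, and 10.04 after 24 hr of O3, 9.79, 9.76, and 9.93 after 48 hr, and 9.75, 9.74, and 9.51 after 72 hr. Those of Il10-/- mice were 8.02, 7.001, and 7.56 in air, 8.09 and 6.90 after 24 hr, 8.09, 8.06, and 6.45 after 48 hr, and 8.18, 8.04, and 6.47 after 72 hr. The Il10+/+ arrays lay within a narrow band, and the Il10-/- arrays were spread over a range of their own below it, with 1 array near 7 or lower in each group. The means differed by -2.22 (Il10+/+ 9.76 ± 0.17, SD, n = 13; Il10-/- 7.53 ± 0.69, SD, n = 11).

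St8sia4 was the gene whose genotypes came closest, with the highest Il10-/- array only 0.0867 below the lowest Il10+/+ array. In Il10+/+ mice its log2 values were 9.26, 9.32, 9.42, and 8.89 in air, 8.79, 8.66, and 8.60 after 24 hr of O3, 8.99, 9.02, and 8.60 after 48 hr, and 9.07, 8.91, and 8.54 after 72 hr. The Il10-/- arrays gave 8.09, 7.24, and 7.81 in air, 5.94 and 6.76 after 24 hr, 8.46, 7.56, and 7.0001 after 48 hr, and 7.76, 7.55, and 7.30 after 72 hr. The lowest values were the 2 Il10-/- arrays at 24 hr of O3, which lay below all 3 air arrays of that genotype. The genotype difference of means was -1.51 in air and -2.33, -1.20, and -1.30 after 24, 48, and 72 hr of O3.

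Ramp1 and Rab7b had the smallest differences, both under 1 on the log2 scale. For Ramp1 the Il10+/+ values were 9.35, 9.29, 9.55, and 9.40 in air, 9.19, 9.47, and 9.18 after 24 hr of O3, 9.03, 8.80, and 8.76 after 48 hr, and 8.96, 8.89, and 9.06 after 72 hr. The Il10-/- values were 8.61, 8.48, and 8.62 in air, 8.22 and 8.31 after 24 hr, 8.11, 7.68, and 7.81 after 48 hr, and 8.20, 8.33, and 8.43 after 72 hr. In both genotypes the lowest array and the lowest group mean of Ramp1 were at 48 hr, and within each exposure the genotypes did not overlap. The genotype difference of means was -0.89 for Ramp1. Rab7b ran from 6.47 to 7.12, with a median of 6.78, in Il10+/+ mice and from 5.69 to 6.27, with a median of 6.05, in Il10-/- mice, a difference of -0.82.

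**Figure D1:**
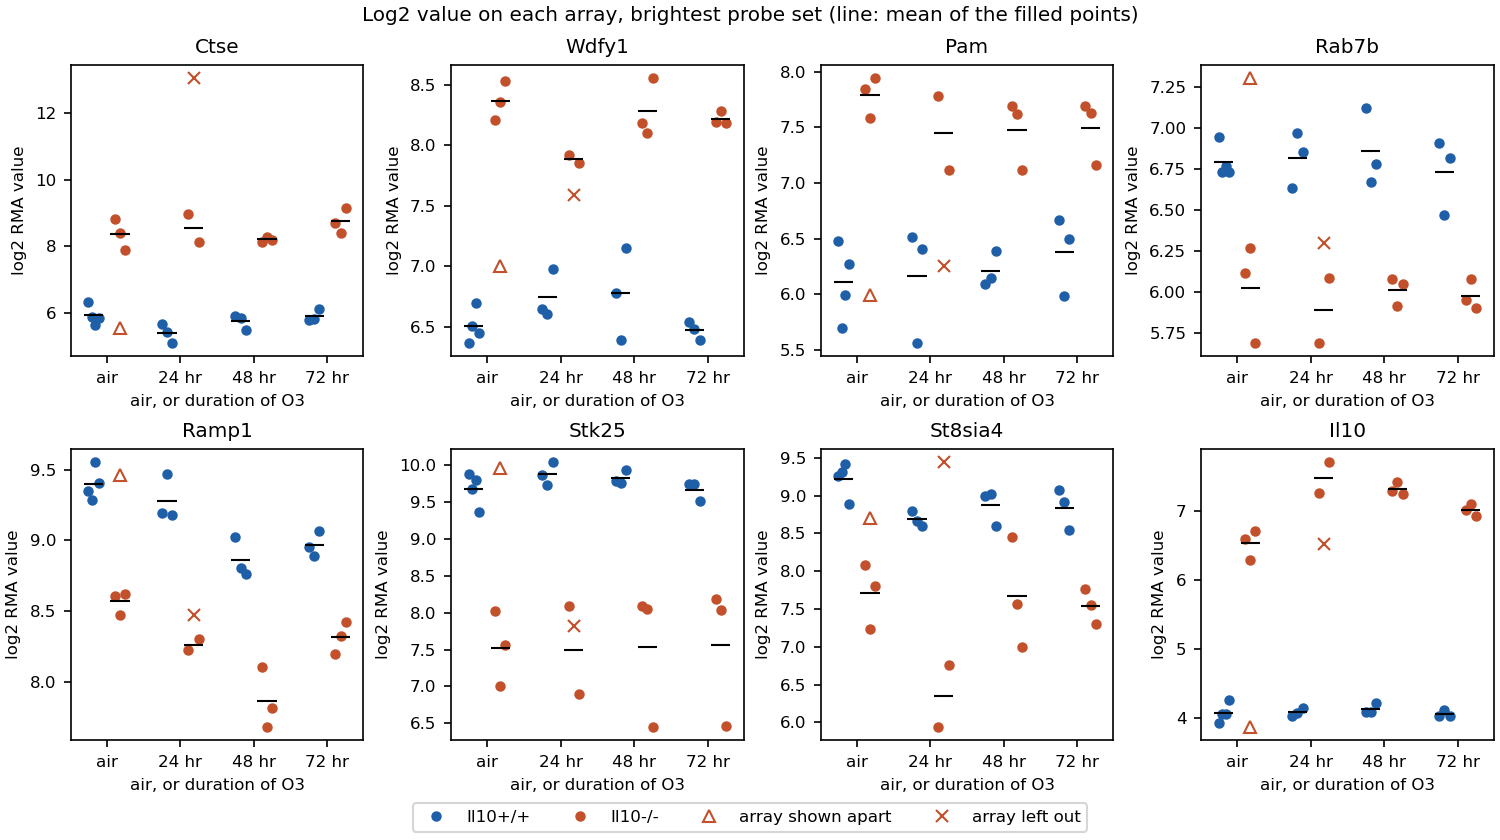
Log2 value of each array (vertical axis) at the 7 genes and Il10, in air or after 24, 48 or 72 hr of O3, for Il10+/+ (blue) and Il10-/- (orange) mice, with a line at the mean of the filled points. The genotypes do not overlap among filled points in any panel, the open triangle (Il10-/- air 48 hr replicate 1) lies nearer to the Il10+/+ mean in all 8, and the cross (Il10-/- O3 24 hr replicate 2) reaches 13.04 at Ctse.

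The air array of Il10-/- mice that stood apart, 48 hr replicate 1, was closer at all 7 genes to the mean of Il10+/+ mice than to that of its own label. Its log2 values were 5.55 for Ctse, 7.003 for Wdfy1, 6.00 for Pam, 7.30 for Rab7b, 9.46 for Ramp1, 9.96 for Stk25, and 8.71 for St8sia4. The Rab7b value lay above every Il10+/+ array, the highest of which was 7.12. Of the 5 other probe sets 3 were nearer to Il10+/+ mice. Those of Ctse (1427797_s_at) and Rab7b (1435830_a_at) were nearer to Il10-/- mice. With this array in its group, the genotype difference of means in air moved from 2.43 to 1.73 for Ctse, from -2.15 to -1.54 for Stk25, and from -0.77 to -0.45 for Rab7b, and the genotypes of all 7 genes overlapped. Over 24 arrays the genotypes did not overlap at 0.0807% of genes, which is 10 of 12394 genes, and at 0.0588% of probe sets, and over 25 or 26 arrays they did so at 0% of genes and of probe sets. The 7 genes are among those 10 by the way they were chosen, so the count is no evidence about them. The remaining 3 were Il10, Chil1, which encodes a chitinase-like protein and also lies on chromosome 1, and Nnt, the mitochondrial transhydrogenase gene on chromosome 13.

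Along chromosome 1, Ctse and Rab7b are adjacent and both separated the genotypes, while the neighbors that are no member did not. Only 2 of the 701 measured chromosome 1 genes that are no member separated, so the choice of members largely set this result. Taking the nearest 3 measured genes on each side of every member gave 33 genes that are no member, and none of them separated the genotypes over 24 arrays. Their differences of means ran from -0.70 at Kcne4, beside Wdfy1, to 0.70 at Rab17, beside Ramp1, with a median of 0.014, and 31 of the 33 were under 0.5 in size. The genes next to Ctse and Rab7b were close to 0, with 0.029 at Avpr1b and 0.070 at Pm20d1. In bins of 50 measured genes counted from Il10, the 50 genes that begin with Il10 held 4 genes that separated (Il10, Ctse, Rab7b, and Chil1). The 50 genes from 51 to 100 places before Il10 held another 4 (Ramp1, Stk25, St8sia4, and Pam), and the bin before that held Wdfy1. The bin between, directly before Il10, held none, and neither did the other 11 bins. Chil1 stood 32 places after Il10 and had a genotype difference of -1.54. Of 708 measured genes on chromosome 1, 9 separated the genotypes, and of 11662 on other chromosomes 1 did.

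**Figure D2:**
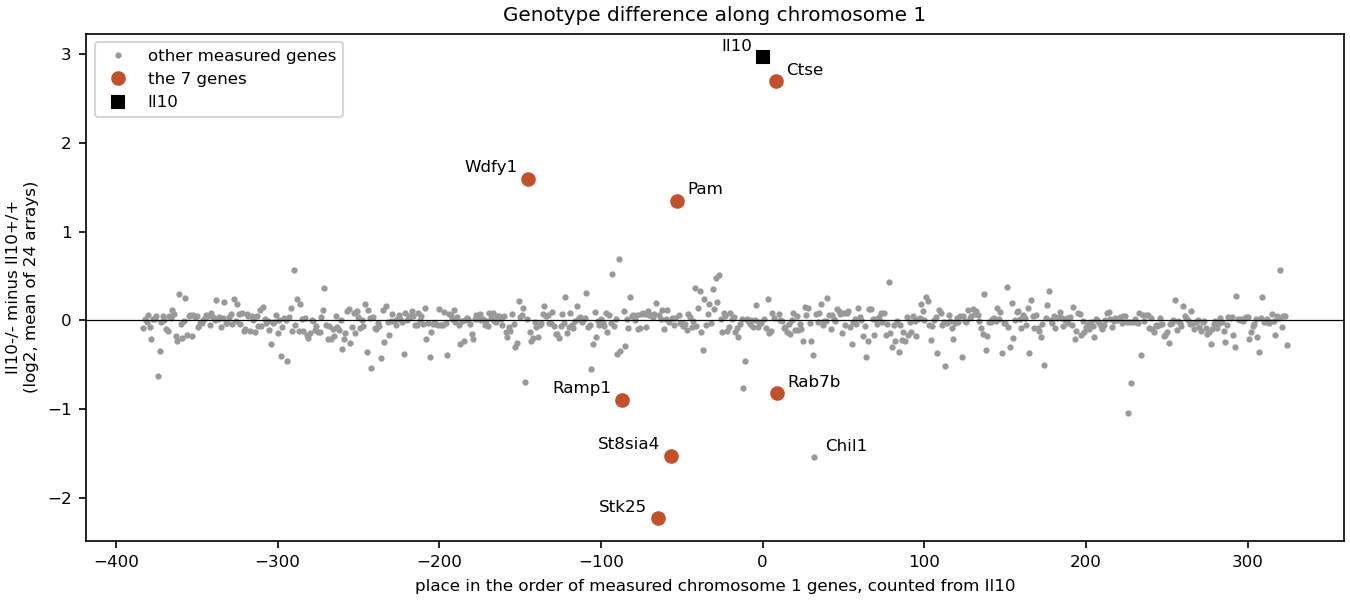
Il10-/- minus Il10+/+ mean log2 value over 24 arrays (vertical axis) for the 708 measured genes of chromosome 1, placed by their order from Il10 (horizontal axis, in genes). The 7 genes (filled circles) lie between -2.22 and 2.70, from 145 places before Il10 to 9 places after it, with genes near 0 among them.

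The probe sets of a gene did not always tell the same story. All 7 probe sets with the highest mean separated the genotypes, but only 1 of the 5 other probe sets did, 1424749_at of Wdfy1. That one had the larger Wdfy1 difference, 2.13, with Il10+/+ arrays at 4.62 to 5.64 and Il10-/- arrays at 6.71 to 7.46. The third Wdfy1 probe set, 1453426_a_at, differed by 0.54 and missed separation by 0.0045. The second probe sets of Ctse (1427797_s_at), Rab7b (1435830_a_at) and St8sia4 (1430391_a_at) differed by 0.054, 0.20, and -0.34, with overlapping genotypes. For Ctse the second probe set lay at 5.23 to 7.06 in Il10+/+ and at 5.66 to 6.71 in Il10-/- mice, so one probe set gave a gap and the other a shared range. For Rab7b the sign of the difference turned between its probe sets. Pam, Ramp1 and Stk25 have 1 probe set each. Which part of each transcript the probe sets read is not given in the sources used here, and whether sequence differences between the strains fall under the probes was not tested.

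**Figure D3:**
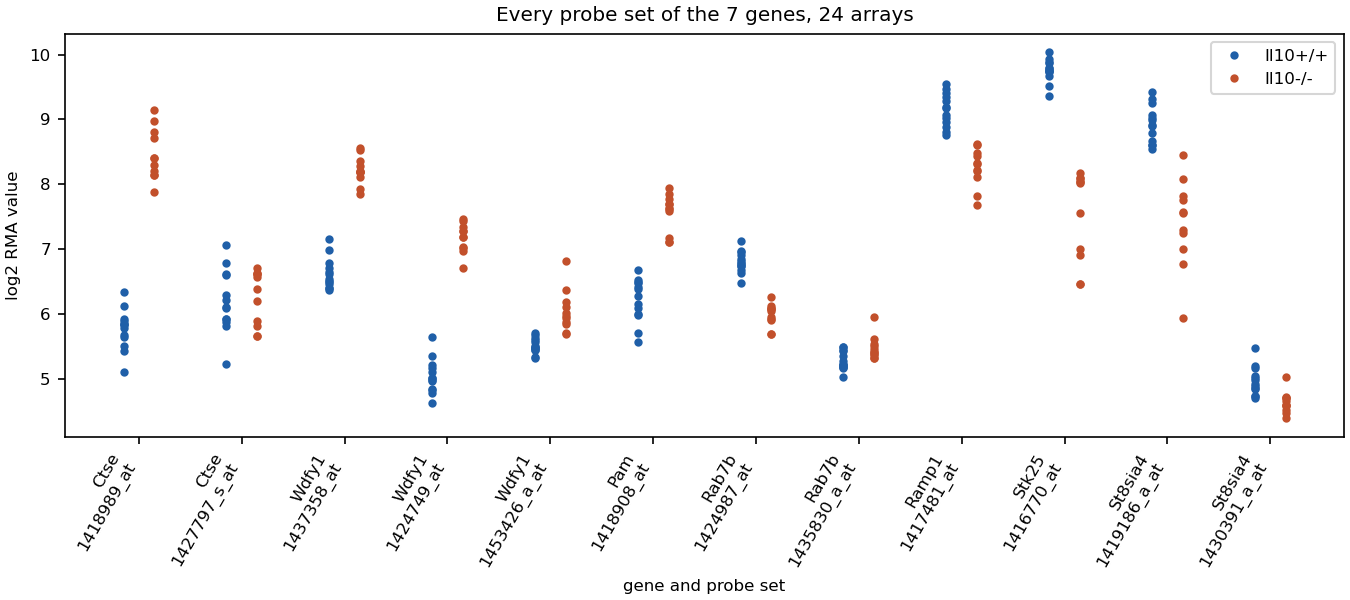
Log2 value of each of 24 arrays (vertical axis) at every probe set of the 7 genes (horizontal axis), for Il10+/+ (blue) and Il10-/- (orange) mice. Of the 12 probe sets, the 7 with the highest mean of their gene and Wdfy1 1424749_at show a gap between the genotypes, and the second probe sets of Ctse, Rab7b and St8sia4 show none.

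The change with O3, averaged over the genotypes, was not the measure that chose the genes and was tested with limma over all 20393 probe sets. Over 25 arrays it is not independent of that measure. The array labelled Il10-/- air 48 hr replicate 1, nearer to Il10+/+ mice at all 7 genes, enters the air mean. Changes are therefore also given over 24 arrays. Averaged over the exposure times, Ramp1 was lower after O3 in both fits, St8sia4 passed the test over 25 arrays only, and the other 5 genes passed in neither. Ramp1 fell by 0.50 on the log2 scale over the 3 exposure times (SE 0.094, adjusted p = 0.00111), and St8sia4 fell by 0.60 (SE 0.17, adjusted p = 0.0228). The 2 of 7 genes called over 25 arrays stand beside 11.8% of probe sets called in either direction, 4.44% called lower and 7.33% called higher. Over 24 arrays the fall of Ramp1 was 0.39 (adjusted p = 0.000421), and the change of St8sia4 was -0.47 and no longer passed (adjusted p = 0.0689). In that fit 9.25% of probe sets were called in either direction and 3.3% called lower. St8sia4 also missed the threshold without Il10-/- air 24 hr replicate 1 (adjusted p = 0.0501) and over all 26 arrays (adjusted p = 0.469).

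By exposure time, St8sia4 passed the test at 24 hr and Ramp1 at 48 and 72 hr, and whether a change differs between times was not tested. At 24 hr St8sia4 fell by 1.07 (SE 0.23, adjusted p = 0.0151, with 1.76% of probe sets called and 0.569% called lower). The change of Ramp1 at 24 hr was -0.32 (adjusted p = 0.22), and -0.21 over 24 arrays. The 24 hr call of St8sia4 was kept over 24 arrays (-0.95, adjusted p = 0.0266, with 1.21% of probe sets called and 0.382% called lower). It was lost without Il10-/- O3 24 hr replicate 1 (-0.87, adjusted p = 0.0659). It was also lost over all 26 arrays, where the array left out had a St8sia4 value of 9.44. At 48 hr Ramp1 fell by 0.73 (SE 0.12, adjusted p = 0.000246, with 11.4% of probe sets called and 4.68% called lower). At 72 hr it fell by 0.45 (SE 0.12, adjusted p = 0.0158, with 11% called and 4.19% called lower). Over 24 arrays the changes of Ramp1 were smaller, -0.62 at 48 hr and -0.34 at 72 hr, and both passed. There 9.39% and 9.29% of probe sets were called, and 3.7% and 3.46% called lower. St8sia4 did not pass at these times, with -0.32 (SE 0.21) at 48 hr and -0.40 (SE 0.21) at 72 hr. These St8sia4 changes rest on its probe set with the highest mean. There the means over 24 arrays went from 9.22 in air to 8.69 at 24 hr in Il10+/+ mice. In Il10-/- mice they went from 7.71 to 6.35. At its second probe set, 1430391_a_at, they went from 5.05 to 4.89 and from 4.73 to 4.65, a smaller fall in each genotype. Whether the O3 change differs between these probe sets was not tested. At 48 hr all 3 Il10+/+ and all 3 Il10-/- arrays of Ramp1 lay below every air array of their genotype.

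Averaged over the exposure times, both genes had lower means after O3 in each genotype. In Il10-/- mice Ramp1 fell by 0.64 over 25 arrays (SE 0.13, adjusted p = 0.00581) and by 0.42 over 24 arrays (adjusted p = 0.0168), with 5.76% and 2.96% of probe sets called and, over 25 arrays, 1.6% called lower. In Il10+/+ mice its change was -0.36 in both fits. It missed the threshold over 25 arrays (SE 0.13, adjusted p = 0.174, with 2.75% called and 0.623% called lower) and passed over 24 (SE 0.084, adjusted p = 0.0223, with 2.61% called). Over 25 arrays the change of St8sia4 was -0.77 in Il10-/- mice (SE 0.24, adjusted p = 0.0629) and -0.42 in Il10+/+ mice (SE 0.24). Over 24 arrays it was -0.53 in Il10-/- mice and did not pass. There its Il10-/- group mean was 7.71 in air and 6.35, 7.67, and 7.54 after 24, 48, and 72 hr of O3, so the fall was mostly at 24 hr. Whether either change differs between the genotypes was not tested, since the arrays that chose the genes enter that difference.

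**Figure D4:**
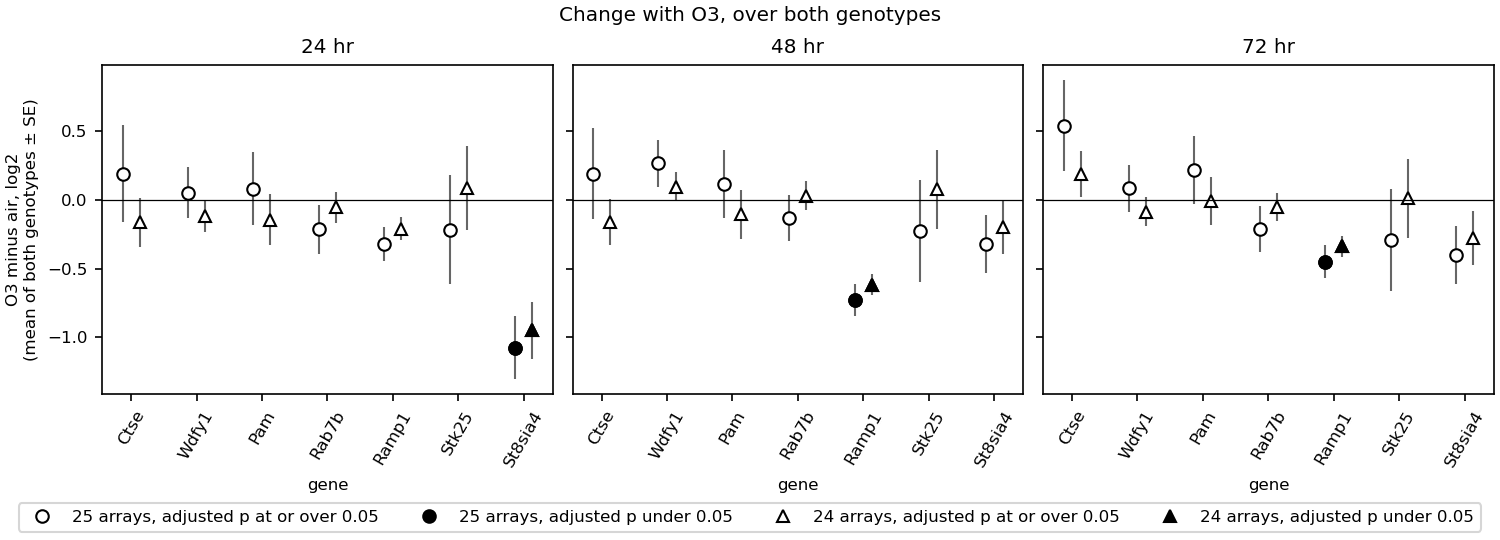
O3 minus air on the log2 scale, averaged over both genotypes (vertical axis, ± SE from limma), for each of the 7 genes after 24, 48 and 72 hr of O3, over 25 arrays (circles) and over 24 arrays without Il10-/- air 48 hr replicate 1 (triangles). Filled symbols passed an adjusted p of 0.05, and they are St8sia4 at 24 hr and Ramp1 at 48 and 72 hr in both fits.

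Ctse, Wdfy1, Pam, Rab7b and Stk25 gave small changes with O3 whose sign mostly hung on 1 air array. Over 25 arrays the log2 difference was 0.30 for Ctse (SE 0.26), 0.13 for Wdfy1 (SE 0.14), 0.14 for Pam (SE 0.20), -0.19 for Rab7b (SE 0.13), and -0.25 for Stk25 (SE 0.29), with adjusted p from 0.419 to 0.738. Without the array labelled Il10-/- air 48 hr replicate 1 the values were -0.048, -0.038, -0.088, -0.028, and 0.057, so 4 of the 5 turned sign. The dependence was largest for Ctse in Il10-/- mice. There its change after O3 was 0.85 over 25 arrays (SE 0.38, adjusted p = 0.215) and 0.14 over 24 arrays (SE 0.20). In Il10+/+ mice it was -0.24 (SE 0.37 over 25 arrays).

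Gene families around the members were read over the same O3 test. Over all probe sets 7.33% were called higher and 4.44% lower, and 1 gene in a list of 8 or 9 is near these shares. Among cathepsins, lysosomal and endosomal proteases, 5 of 14 measured genes rose (Ctsb, Ctsc, Ctsh, Ctsk, and Ctsz) and 1 fell (Ctsf), with a median change of 0.14, against -0.015 over all genes. Ctsk, best known from bone resorption, rose by 0.98 (adjusted p = 4.56e-05), and Ctsh rose by 0.47 (adjusted p = 4.47e-06), while Ctse did not pass. Of 14 cathepsins only Ctse separated the genotypes. In the calcitonin receptor and RAMP list 1 of 8 measured genes was called, Ramp1 itself, and in the polysialic acid list 1 of 8, St8sia4 itself. None of 15 Rab7 and late endosome genes, none of 5 genes of Wdfy proteins and Toll-like receptors, and none of 10 peptide processing genes were called. The receptor adaptors listed with the Wdfy genes, Ticam1 and Ticam2, were not among the measured genes. Of 9 genes of the GCKIII kinases and their STRIPAK partners 1 rose, Strn (0.31, adjusted p = 0.0415). In each of the 7 lists the member was the 1 gene that separated the genotypes. The members were chosen for this, and over all genes 0.0807% separated over 24 arrays. These counts are therefore no evidence about the members or their families.

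Markers of other cells were read in the same test, beside the 4.44% of all probe sets called lower and 7.33% called higher. Of 6 endothelial markers 4 were lower after O3 (Pecam1, Cldn5, Tek, and Tie1), with a median change of -0.28. Their mean log2 level was 10.95 to 11.19 in Il10+/+ air and 10.71 to 11.08 after O3, and 11.04 to 11.07 and 10.39 to 10.97 in Il10-/- mice. None of 6 smooth muscle and fibroblast markers were called. Of 5 B cell markers 1 was lower (Blk, -0.43, adjusted p = 0.0287), with a median change of -0.55. Their mean level was 7.55 to 8.22 in Il10+/+ air and 6.27 to 7.66 after O3, and 5.93 to 7.55 and 5.87 to 7.34 in Il10-/- mice. Of 6 T cell markers 1 was lower, with a median change of -0.15. Among the other lists, 2 of 6 alveolar type 2 and 3 of 8 macrophage markers were higher, 2 of 6 alveolar type 1 and 1 of 2 ciliated cell markers were lower, and none of 5 club cell, 6 dendritic cell or 5 neutrophil markers were called. The part of these cells in the changes of Ramp1 and St8sia4 was not tested. Between the genotypes, the median difference over O3 was 1.13 for neutrophil markers, among them S100a8 (1.78) and S100a9 (1.89), and -0.84 for B cell markers, among them Ms4a1 (-1.19). In air over 24 arrays S100a8 differed by 0.11, S100a9 by 0.13, and Ms4a1 by -1.51. The other 9 lists had medians over O3 from -0.21 to 0.046. No marker separated the genotypes over 24 arrays, and the part of these cells in the genotype differences of the 7 genes was not tested.

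Each member was ranked only against genes that are no member, so another member may lie nearer or further than the genes named. Across 25 arrays the genes with the pattern most like that of Ctse, Wdfy1 and Pam were Il10 and Nnt. These correlations hold the genotype difference itself and are a description. None of the genes nearest to the other 4 members separated the genotypes over 24 arrays. Little could differ there, since Chil1 was the only separating gene outside the members that was lower in Il10-/- mice. Ctse went with Il10 (r = 0.95) and Nnt (r = 0.94), Wdfy1 with Nnt (r = 0.96) and Il10 (r = 0.93), and Pam with Nnt (r = 0.90) and Il10 (r = 0.88). The third gene for each stood lower, Csf3r for Ctse (r = 0.77), Rab4a for Wdfy1, and Clasp1 for Pam (both r = 0.74). Of the genes with lower values in Il10-/- mice, Rab7b, Ramp1 and Stk25 had their lowest r with Il10, at -0.92, -0.89, and -0.91. Ramp1 was most like Cd83 (r = 0.83), Aspa (r = 0.82) and Mef2c (r = 0.81), St8sia4 was most like Mndal (r = 0.90), Mef2c (r = 0.88) and Gm20559 (r = 0.88), and Stk25 was most like Rell1 (r = 0.80), Cxcr4 and Hnrnpl (both r = 0.77). Rab7b was most like Erdr1 (r = 0.78), Tle2 (r = 0.74) and AU020206 (r = 0.71). The lowest r was with Rell1 for Ctse (-0.85), Chil1 for Wdfy1 (-0.79), Ngef for Pam (-0.79) and Xbp1 for St8sia4 (-0.89). Mef2c stood among the nearest for both Ramp1 and St8sia4.

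Stk25 and Pam varied together among Il10-/- arrays, along a number in the labels. The source names of the samples end in a number, and 4 of the 11 Il10-/- arrays carry number 4, 1 in air and 1 at each O3 time. On these, Stk25 had log2 values of 7.001, 6.90, 6.45, and 6.47, and the other 7 Il10-/- arrays ran from 7.56 to 8.18. Pam had values of 7.58, 7.11, 7.11, and 7.16 on the arrays with number 4, and 7.62 to 7.94 on the other 7. Neither gene overlapped between the numbers, with mean differences of -1.30 for Stk25 and -0.50 for Pam, and the other 5 members did overlap. Of all probe sets, 3.41% did not overlap in this way. The split was noticed after the values were seen, what the number stands for is not given in the sources used here, and its part in the values was not tested. The 1 Il10+/+ array with number 4, in air for 48 hr, had the lowest Stk25 value of its genotype, 9.36, against 9.51 to 10.04 on the other 12, while its Pam value of 6.27 lay inside their range. Within Il10-/- mice the correlation of Stk25 with Pam was 0.82 over 11 arrays. No other pair of members reached 0.6 in size there.

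**Figure D5:**
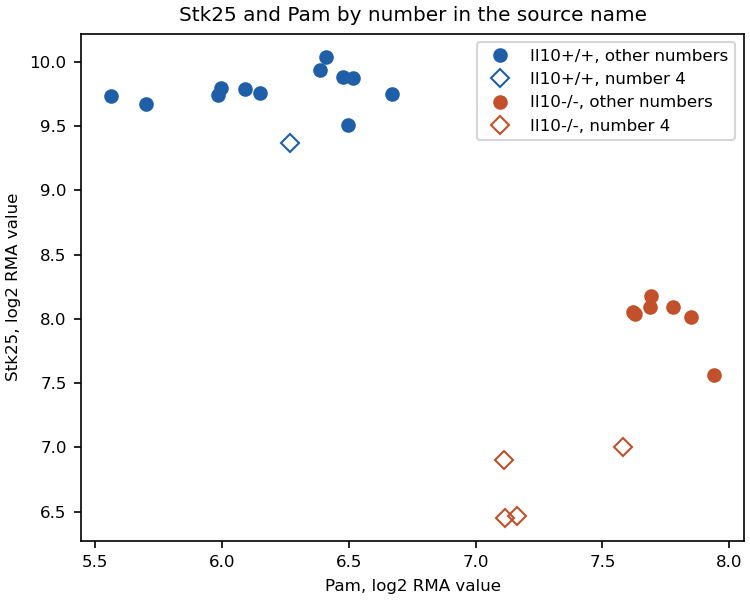
Log2 value of Stk25 (vertical axis) against Pam (horizontal axis) on 24 arrays, for Il10+/+ (blue) and Il10-/- (orange) mice, with open diamonds for arrays whose source name ends in number 4. The 4 Il10-/- diamonds lie below 7.1 for Stk25 and below 7.6 for Pam, apart from the other 7 Il10-/- arrays.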

How the data were processed

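RNA of left lungs of Il10+/+ and Il10-/- mice was read on 26 Affymetrix arrays. The authors normalized and summarized the scans in RMAExpress (Robust Multichip Average) and deposited log2 values; its version is not given in the sources used here. The method sets all arrays to 1 distribution, so values are relative. They were used as deposited. Genes were named from the platform annotation of 2016, leaving out 691 probe sets with several symbols and 1606 with none. Chromosomes and gene order come from GRCm38.p6, matched by gene ID for 12370 of 12394 genes.

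Arrays were fitted in limma 3.58.1 (R 4.3.3), with 1 mean for each of 8 groups and empirical Bayes moderation, over 25 arrays. The Benjamini-Hochberg adjustment ran over 20393 probe sets, with 0.05 as the threshold. The number of arrays limits the precision. The fit was tested on simulated data. Figures were drawn with matplotlib 3.10.9.

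The 7 genes, the gene and marker lists and the rules for naming genes were chosen with earlier results of these data known. Those rules name the members, Il10, the nearest 3 measured genes on each side, and chromosome 1 genes that separate the genotypes. They also name the 3 highest and 1 lowest correlated genes that are no member, and list members past the threshold. Nnt and the markers named were picked after their values were seen. Other names, such as Kcne4 and Rab17, are the extremes of a list. Alternatives were the arrays used, the samples fitted, a replicate block, the letter c of some source names, array weights, moderation, probe sets tested, median centring, and air of matched duration. Source name number 4 as a covariate and the genotype difference over 25 arrays were added after seeing the data.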

Additional observations from a re-analysis of the deposited data

Results flagged for a closer look

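In 2 of 24 groups of 4 air arrays (12 probe sets in 2 genotypes), 1 array lay far from the other 3, and chance alone gives this in about 1 of 20 groups. Ramp1 in Il10-/- air was 9.46 on the array labelled 48 hr replicate 1. Rab7b (1424987_at) in Il10+/+ air was 6.95 on 24 hr replicate 1. On the array left out, labelled Il10-/- O3 24 hr replicate 2, both Ctse probe sets, 1 Rab7b and 1 St8sia4 probe set were above all 25 other arrays. Ctse was 13.04 at 1418989_at and 8.05 at 1427797_s_at, Rab7b was 6.01 at 1435830_a_at, and St8sia4 was 9.44 at 1419186_a_at. In the air groups a far array was flagged by its gap to the next array as a share of the range (Dixon's Q), without a p-value. The 24 groups reuse the same air arrays and are not independent. No other test was made on single arrays.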

How the results depend on the processing

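Ramp1 kept its fall over both genotypes in all 12 alternatives (-0.53 to -0.39, adjusted p from 0.000421 to 0.0045) and with each array left out in turn (adjusted p up to 0.00351). The 2 genes called over both genotypes became 1 over 26 arrays, over 24 arrays, and with the replicate block (St8sia4 adjusted p = 0.052), and 1 to 2 with an array left out. The 1 gene called at 24 hr became 0 over 26 arrays, with only the groups compared in the fit (St8sia4 adjusted p = 0.0548) and with array weights (adjusted p = 0.0672), and 0 to 1 with an array left out. With array weights 2 genes were called at 48 hr, 72 hr, and in Il10-/- mice. In Il10-/- mice the 1 gene called became 0 with only the groups compared (Ramp1 adjusted p = 0.0777), 2 with source name number 4 as a covariate (St8sia4 adjusted p = 0.0495), and 1 to 2 with an array left out, being 2 without air 24 hr replicate 2, O3 24 hr replicate 3 or O3 48 hr replicate 1. In Il10+/+ mice 0 became 1, Ramp1, over 24 arrays and with only the groups compared (adjusted p = 0.0233), and 0 to 1 with an array left out. The 7 genes whose genotypes did not overlap became 0 over 25 and 26 arrays. They stayed 7 with an array left out, but removing an array cannot make separate ranges overlap, so this shows nothing. Over both genotypes 11.8% of all probe sets were called over 25 arrays, 9.25% over 24 and 5.21% over 26. At 24 hr the share was 1.76% over 25 arrays and 0.53% over 26. For the other settings this share was not counted. There, a shift in the genes called cannot be told from a shift in the share of all probe sets called. The cause of these shifts was not tested.

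Signs turned only at changes that were not called. Over 24 arrays the O3 change over both genotypes became -0.048 for Ctse, -0.038 for Wdfy1, -0.088 for Pam, and 0.057 for Stk25. By time it became at 24 hr -0.17 for Ctse, -0.12 for Wdfy1, -0.15 for Pam, and 0.086 for Stk25, at 48 hr -0.16 for Ctse, -0.11 for Pam, 0.027 for Rab7b, and 0.076 for Stk25, and at 72 hr -0.088 for Wdfy1, -0.011 for Pam, and 0.010 for Stk25. Among Il10-/- mice it became -0.23 for Wdfy1, -0.32 for Pam, and 0.0032 for Stk25. Over 26 arrays Pam became -0.12 at 24 hr and -0.0031 in Il10-/- mice. With the letter c as a covariate Wdfy1 became -0.0088 in Il10-/- mice and Stk25 0.080 at 48 hr. With the replicate block Wdfy1 became -0.013 at 24 hr and Rab7b -0.015 in Il10+/+ mice. With array weights Pam became -0.034 and Rab7b -0.11 in Il10+/+ mice, and with number 4 as a covariate Stk25 became -0.20 there. With an array left out, the changes over both genotypes ran from -0.048 to 0.50 for Ctse, -0.038 to 0.22 for Wdfy1, -0.088 to 0.24 for Pam, and -0.44 to 0.057 for Stk25. At 24 hr they ran from -0.17 to 0.40 for Ctse, -0.12 to 0.14 for Wdfy1, -0.15 to 0.24 for Pam, and -0.52 to 0.086 for Stk25. At 48 hr they ran from -0.16 to 0.38 for Ctse, -0.11 to 0.22 for Pam, -0.24 to 0.027 for Rab7b, and -0.42 to 0.076 for Stk25. At 72 hr they ran from -0.088 to 0.17 for Wdfy1, -0.011 to 0.31 for Pam, and -0.48 to 0.010 for Stk25. Among Il10-/- mice they ran from -0.23 to 0.27 for Wdfy1, -0.32 to 0.33 for Pam, and -0.98 to 0.0032 for Stk25, and among Il10+/+ mice from -0.037 to 0.058 for Rab7b. The labels do not say that a replicate number marks a shared animal or day. Deviations of same-numbered arrays had r from -0.37 to 0.53 (median 0.12, over 0.1 in 49 of 96 pairs), and those of different-numbered arrays a median of -0.063 (over 0.1 in 30 of 184 pairs). Same-numbered pairs thus had the higher median. The numbers were not taken as pairs because not every same-numbered pair was over 0.1, a rule that arrays sharing a batch could also fail. Whether the numbers mark a batch was not tested. The replicate block removed the St8sia4 call over both genotypes (adjusted p = 0.052) and changed no other call. With the mean of all its probe sets the genotype difference became 1.38 for Ctse and -0.31 for Rab7b.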
